A study of Homo sapiens with 12 samples.

Results

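The TRPM genes encode cation channels of the melastatin branch of the TRP (transient receptor potential) superfamily. Transcripts of 5 of them, *TRPM2*, *TRPM3*, *TRPM4*, *TRPM6* and *TRPM7*, were followed by RNA-seq in HEK293 cells, a human embryonic kidney line, that had been transiently transfected with PEG10 constructs. The 5 genes were chosen by symbol from the 26485 genes of the count table, and all 5 passed the filter on low counts, which left 17176 genes to test. *TRPM4* was chosen because its differences from control were already known, so those differences are given as a description, with no test, and the other 4 genes were added as its relatives.

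*PEG10* is a retrotransposon-derived gene whose transcript is read as a gag protein or, after a ribosomal frameshift, as a gag-pol protein. The wild-type (WT) cells received PEG10 gag-pol (titled FL PEG10), PEG10 gag (titled RF1), PEG10 NC, which is the nucleocapsid fragment of gag, or LifeAct-Dendra2, a fluorescent actin-binding fusion that served as control. Each construct had 3 replicates, numbered 1 to 3 and described as independent passages, and all 12 libraries came from this 1 cell line at a single time after transfection. The control cells were therefore transfected too, and no untransfected library was analysed here. A change in every cell and a larger change in the transfected cells alone cannot be told apart in these bulk libraries.

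The libraries held 30625725 to 45316749 counts. *PEG10* made up 0.0306% ± 0.00658 of the counts in control (SD, n = 3), 4.54% ± 2.46 with gag-pol, 5.27% ± 1.29 for gag and 0.310% ± 0.0757 for NC. *PEG10* counts were thus above control with each construct. The NC libraries (0.238% to 0.389%) lay between those of control and those of gag-pol and gag. These shares are not per length, and NC is a short fragment of gag. They therefore do not show whether fewer NC transcripts were made. The gag-pol (2.80% to 7.35%) and gag (3.78% to 6.10%) libraries overlapped, so these counts do not tell gag-pol and gag apart. All 6 HEK293 marker genes examined were present in every library, among them *VIM* at 13227 to 27752 counts and *PAX2* at 503 to 883. The lowest were *LHX1*, at 161 to 401, and *NEFM*, at 41 to 119, which overlaps the astrocyte gene *GFAP* (19 to 71). Of 7 markers of other cell types, the leukocyte gene *PTPRC* was at 0 in 10 libraries and the fibroblast gene *DCN* at 0 in 9. *PECAM1*, *ALB*, *MYOD1* and *GFAP* stayed at or below 71 counts. *COL1A1*, also taken as a fibroblast marker, was at 644 to 1498, above *LHX1* and *NEFM* and overlapping *PAX2*. The fibroblast markers thus went different ways.

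TRPM channels assemble as tetramers and pass cations across the plasma membrane or the membranes of organelles. *TRPM4* encodes a channel that opens when intracellular calcium rises but itself passes sodium and potassium, so it depolarises the cell. *TRPM7* and *TRPM6* encode channels for magnesium, calcium and other divalent ions that carry a protein kinase at the C-terminus. *TRPM2* encodes a calcium-permeable channel gated by ADP-ribose, and *TRPM3* a channel activated by heat and by the steroid pregnenolone sulfate. HEK293 cells are widely used to express TRPM channels from plasmids, and the levels below are those of the cells' own genes.

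The members lie apart in the genome (GRCh38, GENCODE 44). *TRPM4* spans chromosome 19, 49157741 to 49211836, on the forward strand. *TRPM7* spans chromosome 15, 50552473 to 50686797, on the reverse strand. *TRPM2* spans chromosome 21, 44350163 to 44443081, on the forward strand. *TRPM6* (74722495 to 74888094) and *TRPM3* (70529060 to 71446904) are both on the reverse strand of chromosome 9. Whether the counts used strand is not given in the sources used here. *TRPM7* shares 606 bases of exon with a long noncoding RNA on the opposite strand and 390 with a protein-coding gene on its own strand, so some of its reads could belong to these. The antisense gene *TRPM2-AS* shares no exon base with *TRPM2* and had 0 to 3 counts.

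The coding sequences of the TRP box are shown because this short motif, which follows the last membrane segment, is what the members share. They also show how far the relatives differ from *TRPM4* over this stretch. In the canonical transcripts, the pattern tryptophan, lysine, any residue, any residue, arginine occurred once in each protein. The capitals mark the 15 bases of the pattern, with 15 bases on either side in lower case.
TRPM4: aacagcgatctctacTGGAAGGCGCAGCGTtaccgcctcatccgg
TRPM7: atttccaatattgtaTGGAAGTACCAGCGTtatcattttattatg
TRPM6: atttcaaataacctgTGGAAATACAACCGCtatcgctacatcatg
TRPM2: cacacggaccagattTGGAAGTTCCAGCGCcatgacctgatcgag
TRPM3: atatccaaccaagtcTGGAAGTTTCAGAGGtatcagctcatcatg

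The *TRPM4* box is at chr19:49210249-49210263 in exon 21 (codons 1058 to 1062 of 1214), and the *TRPM7* box is at chr15:50594559-50594573 in exon 24 (codons 1111 to 1115 of 1865). The boxes of *TRPM6* (chr9:74776022-74776036, exon 24), *TRPM2* (chr21:44417967-44417981, exon 21) and *TRPM3* (chr9:70552989-70553003, exon 24) are also within coding exons. Of the 45 bases shown, 24 were the same in *TRPM7* as in *TRPM4*, 25 in *TRPM2*, 25 in *TRPM3* and 22 in *TRPM6*. Even around this shared motif, no relative matched *TRPM4* at more than 25 of the 45 bases. Other stretches were not compared, nor were the relatives with each other, such as *TRPM6* with *TRPM7*. Whether reads of the members could be mistaken for each other was thus not tested.

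*TRPM7* and *TRPM4* made up nearly all of the TRPM transcripts. Of the counts of the 5 genes over all libraries, 73.7% fell on *TRPM7*, 24.3% on *TRPM4*, 0.909% on *TRPM2*, 0.702% on *TRPM6* and 0.430% on *TRPM3*. Levels can be compared between genes only per length, and were taken as CPM (counts scaled to a common library total) per kilobase of annotated exon. On that scale the level over 12 libraries was 5.20 ± 0.672 (SD) for *TRPM7*, 3.20 ± 1.18 for *TRPM4*, 0.126 ± 0.0479 for *TRPM2*, 0.0674 ± 0.0295 for *TRPM6* and 0.0171 ± 0.00749 for *TRPM3*. *TRPM7* stood at percentile 77.2 of the tested genes by mean log2 CPM, *TRPM4* at 50.1, and the other 3 at or below 13.7. These percentiles are not per length, so long genes rank higher in them.

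The order of the levels was firm only in part. *TRPM4* was above *TRPM2* in 12 of 12 libraries, by 14.0 to 122 times per kilobase, and *TRPM6* was above *TRPM3* in 12 of 12. *TRPM2* was above *TRPM6* in 10 of 12, so these neighbours did not separate. *TRPM7* was above *TRPM4* in 11 of 12 libraries, but in 9 of 12 when the length of the canonical transcript was used in place of all annotated exons, a choice made after the data were seen.

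*TRPM4* was lower with each PEG10 construct than with control, and lowest with gag. Normalized counts, which are counts divided by the effective library size and scaled to the mean library total, were 1073, 1352 and 1058 in control replicates 1, 2 and 3. They were 559, 853 and 616 with gag-pol, 423, 682 and 449.6 with gag, and 751, 919 and 720.4 with NC. No library of any PEG10 construct reached the lowest control library, and in every group replicate 2 was the highest.

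The group means of *TRPM4* were 1161 ± 166 in control (SD, n = 3), 676 ± 156 with gag-pol, 518 ± 142 for gag and 797 ± 107 for NC. These are 58.2%, 44.6% and 68.6% of the control mean. The fitted log2 differences from control were -0.79 (SE 0.11, 95% interval -1.01 to -0.57) for gag-pol, -1.18 (SE 0.11, -1.41 to -0.96) for gag and -0.54 (SE 0.11, -0.76 to -0.32) for NC. The difference held at each passage: between libraries of the same number, the log2 ratio ran from -0.94 to -0.66 for gag-pol, from -1.34 to -0.99 for gag and from -0.56 to -0.51 for NC.

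For scale, all 3 libraries lay below all 3 control libraries in 6.75% of tested genes with gag-pol, 2.91% for gag and 4.94% for NC. A log2 difference below that of *TRPM4* was found for 5.57% of tested genes with gag-pol, 0.646% for gag and 8.09% for NC. The 3 comparisons share the same control libraries, so they are not independent of each other. *PEG10* took the largest shares of the counts in the gag-pol and gag libraries. With *PEG10* left out of the fit, the 3 *TRPM4* differences moved by less than the spread between replicates. The normalization already trims genes with extreme ratios, so leaving out *PEG10* could change little, and nothing is concluded from this fit.

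**Figure D1:**
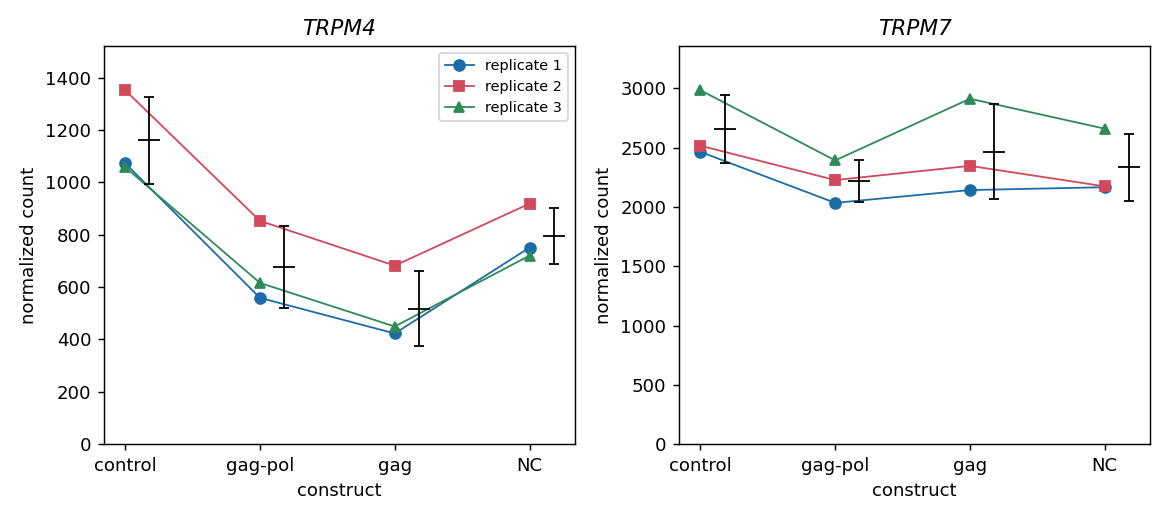
Normalized counts (y axes, linear from 0) of TRPM4 and TRPM7 for the 4 constructs (x axes). Coloured lines join libraries of the same replicate number, and the black dash and bar beside each group are the mean and SD of 3 replicates. TRPM4 falls from 1161 in control to 518 with gag with the 3 lines nearly parallel and replicate 2 on top, while TRPM7 moves over a narrower range with replicate 3 on top.

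Among the constructs themselves, *TRPM4* was lowest with gag and highest with NC. These differences follow from the 3 known differences from control, so they too are a description, with no test. Against gag, *TRPM4* was higher with NC by 0.64 on the log2 scale (SE 0.11, 95% interval 0.42 to 0.87), in 3 of 3 replicate numbers. The NC libraries, from 720.4 to 919, did not overlap the gag libraries, from 423 to 682, as in 7.09% of tested genes. Without single libraries or replicate numbers the difference ran from 0.56 to 0.76.

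Against gag, *TRPM4* was higher with gag-pol by 0.39 (SE 0.11, 95% interval 0.16 to 0.61), in 3 of 3 replicate numbers, although the ranges of the 2 groups overlapped. Without single libraries or replicate numbers it ran from 0.33 to 0.48. Between NC and gag-pol the difference was 0.25 (SE 0.11, 95% interval 0.03 to 0.47), again with overlapping ranges.

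The replicate number was a term in the model because same-numbered libraries deviated together. Without that term the *TRPM4* differences from control were -0.78, -1.16 and -0.54 for gag-pol, gag and NC, and the standard error was 0.21 in place of 0.11.

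Of the 4 members other than *TRPM4*, 0 differed between PEG10 constructs in edgeR's quasi-likelihood test (p-values adjusted as Benjamini and Hochberg describe), 0 had an unadjusted p under 0.05 and 0 passed in DESeq2, which gave the low members no adjusted p in some comparisons. Of all tested genes, 6.46% passed for gag-pol against gag, 16.9% for NC against gag and 0.0873% for NC against gag-pol.

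*TRPM7*, the member with the most counts, was slightly lower with gag-pol than with control. Its normalized counts were 2465, 2517 and 2985 in control replicates 1, 2 and 3, and 2035, 2227 and 2393 with gag-pol. They were 2143, 2347 and 2913 with gag, and 2167, 2174 and 2660.3 with NC. All 3 gag-pol libraries lay below all 3 control libraries, as in 6.75% of tested genes. The gag and NC libraries overlapped those of control, and replicate 3 was the highest in every group.

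The group means of *TRPM7* were 2655 ± 287 in control (SD, n = 3), 2218 ± 179 with gag-pol, 2468 ± 399 for gag and 2334 ± 283 for NC. Against control, *TRPM7* fell with gag-pol by 0.26 on the log2 scale (SE 0.08, 95% interval -0.42 to -0.10, adjusted p = 0.035 in edgeR's test), in 3 of 3 replicate numbers. In that comparison 11.3% of tested genes passed, and *TRPM7* was the only one of the 4 members other than *TRPM4* to do so. This call was fragile: it was lost without control replicate 1, 2 or 3, without gag-pol replicate 1 or 3, and without any whole replicate number, with adjusted p from 0.068 to 0.25 and a log2 difference from -0.30 to -0.21. It was also lost when only the 6 libraries compared were fitted (adjusted p = 0.087) and without the replicate term (adjusted p = 0.65). Without that term only 2 of all tested genes passed with gag-pol, so that last loss is not particular to *TRPM7*.

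With gag, the *TRPM7* difference from control was -0.11 (SE 0.08, 95% interval -0.27 to 0.05, adjusted p = 0.58 in edgeR's test), and with NC it was -0.19 (SE 0.08, -0.35 to -0.03, adjusted p = 0.12). Its differences between constructs ran from -0.15 (gag-pol against gag, 95% interval -0.31 to 0.02) to 0.07 (NC against gag-pol, -0.09 to 0.23), and none passed. The intervals of *TRPM7* were thus far narrower than those of the 3 low members described next. Against control, 1.08% of tested genes passed with gag and 11.2% with NC. Of the 4 members other than *TRPM4*, edgeR called 0 in either comparison, with 0 at an unadjusted p under 0.05 with gag and 1, *TRPM7*, with NC, and DESeq2 called 0 in both.

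The ratio of the main channels differed between the constructs as well. The *TRPM7* level per kilobase over that of *TRPM4* was 1.24 ± 0.257 in control (SD, n = 3), 1.80 ± 0.361 with gag-pol, 2.66 ± 0.811 for gag and 1.59 ± 0.357 for NC. Single libraries ran from 0.993 in control replicate 2 to 3.46 in gag replicate 3. With the canonical transcript lengths the 4 means were 0.910, 1.32, 1.95 and 1.17, so which gene was the higher in control depends on the length used. Another length scales the ratio of every library by the same factor, so the order of the constructs could not change. These ratios restate the *TRPM4* differences on another scale and were not tested.

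*TRPM2*, *TRPM6* and *TRPM3* were near the limit of detection. *TRPM2* had 25, 12 and 47 counts in control replicates 1, 2 and 3, 14, 33 and 44 with gag-pol, 24, 38 and 26 with gag, and 39, 25 and 30 with NC. *TRPM6*, the magnesium channel-kinase of kidney and gut, had 22, 18 and 22 in control, 47, 12 and 27 with gag-pol, 26, 28 and 11 with gag, and 30, 20 and 13 with NC. *TRPM3* had 12, 22 and 4 in control, 18, 7 and 9 with gag-pol, 22, 15 and 12 with gag, and 17, 17 and 14 with NC. In all 3 genes every construct overlapped every other, and the highest and lowest libraries were not tied to a construct.

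**Figure D2:**
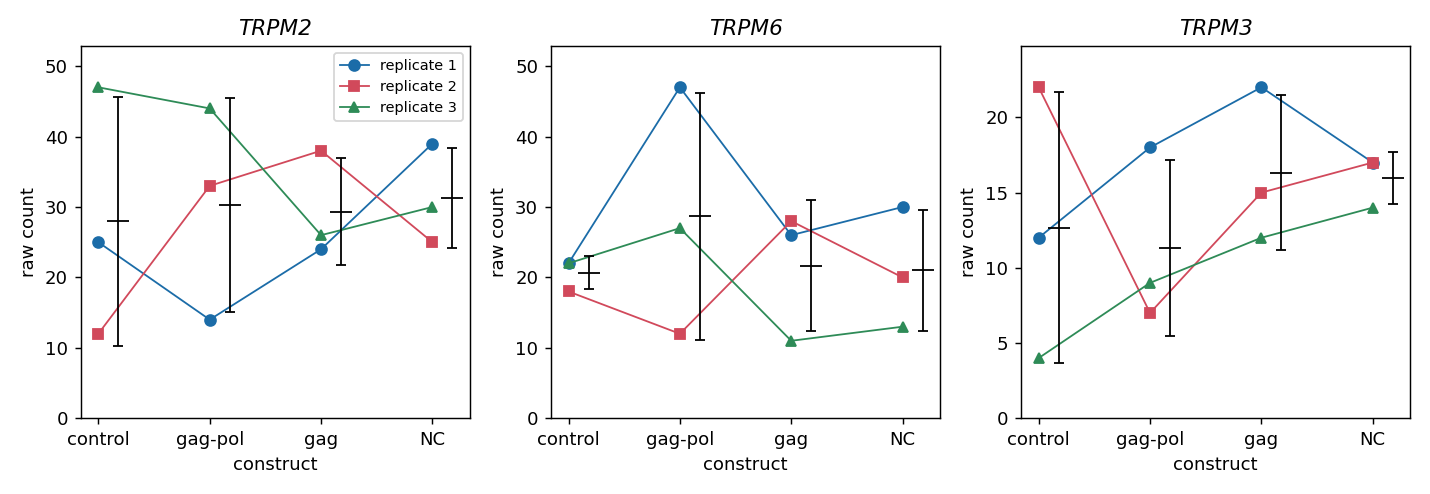
Raw counts (y axes, linear from 0, a different scale in each panel) of TRPM2, TRPM6 and TRPM3 for the 4 constructs (x axes). Coloured lines join libraries of the same replicate number, and the black dash and bar are the mean and SD of 3 replicates. All counts lie between 4 and 47, the lines cross, and the groups overlap in every panel.

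None of these 3 genes passed in any comparison of constructs, with adjusted p of 0.51 or more in edgeR's test. Their standard errors were 0.50 to 0.62 on the log2 scale, against 0.11 for *TRPM4* and 0.08 for *TRPM7*. Against control, *TRPM2* differed by 0.03 with gag-pol (SE 0.50), *TRPM6* by 0.27 (95% interval -0.79 to 1.34) and *TRPM3* by -0.17 (-1.45 to 1.10). With gag, the intervals were -0.82 to 1.27 for *TRPM2*, -0.96 to 1.21 for *TRPM6* and -0.70 to 1.77 for *TRPM3*. With NC they were -0.78 to 1.28, -1.11 to 1.04 and -0.77 to 1.70. A difference the size of that of *TRPM4* with NC lies inside every one of these intervals, so it was not detectable in these libraries.

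**Figure D3:**
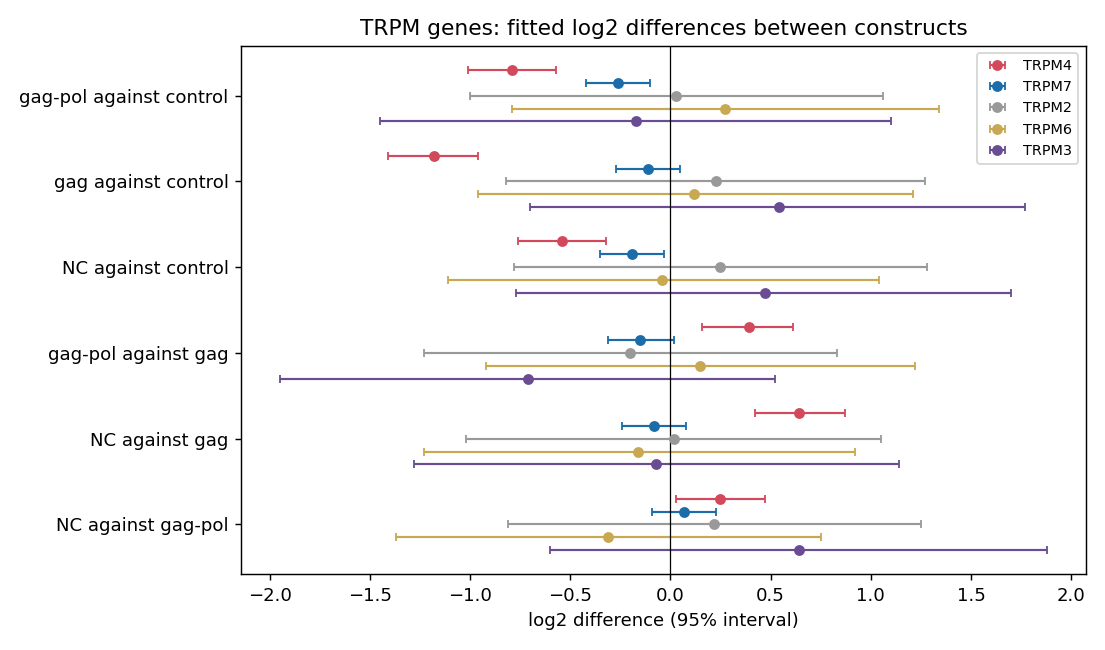
Fitted log2 differences (x axis) of the 5 TRPM genes in the 6 comparisons between constructs (y axis). Points are estimates and bars 95% intervals from the fit to 12 libraries. TRPM4 lies left of 0 in the 3 comparisons with control and right of 0 in the others, TRPM7 stays within 0.26 of 0, and the bars of TRPM2, TRPM6 and TRPM3 all cross 0.

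*TRPM4* and *TRPM7* also differed between passages, and in different ways. *TRPM4* was higher in replicate 2 than in replicate 1 by 0.48 on the log2 scale (SE 0.09, adjusted p = 0.00056 in edgeR's test), in 4 of 4 constructs, and lower in replicate 3 than in replicate 2 by 0.44 (log2 difference -0.44, SE 0.09, adjusted p = 0.0011), again in 4 of 4. Between replicates 3 and 1 it differed by 0.03 (adjusted p = 0.81). The passage difference of *TRPM4* was thus of about the size of its NC difference from control.

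*TRPM7* was higher in replicate 3 than in replicate 1 by 0.31 (SE 0.07, adjusted p = 0.00072 in edgeR's test) and than in replicate 2 by 0.24 (SE 0.07, adjusted p = 0.01), in 4 of 4 constructs each time. The call against replicate 2 was lost without gag replicate 3 (log2 difference 0.20, adjusted p = 0.065). Of all tested genes, 30.5% differed between replicates 2 and 1, 41.6% between replicates 3 and 1 and 27.1% between replicates 3 and 2. Of the 5 members 1, 1 and 2 were called in these comparisons. *TRPM6* (log2 difference -0.85, adjusted p = 0.13) and *TRPM3* (-0.93, adjusted p = 0.16) had their largest passage differences between replicates 3 and 1, and neither passed.

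The remaining TRPM genes with a row in the table were barely detected. *TRPM5*, the close relative of *TRPM4* known from taste cells, had 0 to 31 counts and was the only one of these tested. Its log2 difference was -0.56 with gag-pol (SE 0.92), 0.77 for gag (SE 0.87) and 0.39 for NC (SE 0.90), with adjusted p of 0.75 or more in edgeR's test. *TRPM1*, of melanocytes and retina, was at 0 in 8 libraries and had at most 6 counts. *TRPM8*, the cold and menthol receptor, was at 0 in 6 libraries and had at most 11.

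To place the family among the genes around it, 5 lists with 88 genes were followed: other TRP channels, magnesium transport, ADP-ribose metabolism, calcium entry and clearance, and TRPM channel partners with substrates of the *TRPM7* kinase. Of these genes, 78 were tested. With gag-pol 8 passed (5 higher and 3 lower than control), which is 10.3% against 11.3% of all tested genes. With NC 9 passed (6 higher and 3 lower), 11.5% against 11.2%. With gag 0 passed in edgeR's test and 0 in DESeq2, with 8 at an unadjusted p under 0.05, against 1.08% of all genes. By direction, the background was 5.48% higher and 5.83% lower with gag-pol, and 6.04% higher and 5.15% lower with NC. The list shares are near those of all genes. The calls for gag-pol and NC rested on the replicate term, without which 0 list genes passed in each (3 and 6 at an unadjusted p under 0.05). Only 2 of all tested genes passed in each of those fits, so this loss is not particular to the lists. Leaving out 1 library or 1 replicate number gave 1 to 9 called with gag-pol and 2 to 11 with NC.

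Among other TRP channels, the called genes were all lower than control. *TRPC1*, a subunit of receptor-operated channels, fell by 0.67 on the log2 scale with gag-pol (adjusted p = 0.0025 in edgeR's test) and by 0.54 with NC (adjusted p = 0.011). *MCOLN1*, the lysosomal channel lost in mucolipidosis, fell by 0.59 with gag-pol (adjusted p = 0.011) and by 0.76 with NC (adjusted p = 0.0034), and *TRPV1*, the capsaicin receptor, fell by 0.45 with NC (adjusted p = 0.047). With gag, their log2 differences were -0.10, -0.32 and -0.19 and none passed. Of 16 tested, 2 fell with gag-pol (12.5%, against 5.83% of all genes) and 3 with NC (18.8%, against 5.15%). These shares rest on 2 and 3 genes. The medians were -0.22, -0.13 and -0.23 with gag-pol, gag and NC, against -0.001, 0.003 and 0.004 over all genes. The list holds genes with few counts, among them *TRPM5* (0 to 31) and *TRPV6* (0 to 18), whose differences enter the medians. The most abundant genes of the list that did not pass were *MCOLN3* (log2 differences -0.16, -0.24 and -0.11 with gag-pol, gag and NC) and *PKD2* (0.05, 0.05 and -0.05).

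Among the 21 magnesium transport genes, those called were all higher, 2 with each of gag-pol and NC. That is 9.52% of the list each time, against 5.48% of all genes higher with gag-pol and 6.04% with NC. *PTP4A3*, a phosphatase that binds the CNNM magnesium transporters, rose by 0.57 with gag-pol (adjusted p = 0.023 in edgeR's test) and by 0.62 with NC (adjusted p = 0.015). *NIPAL4* rose by 1.42 with gag-pol (adjusted p = 0.016) at 21 to 105 counts, and *MAGT1* by 0.33 with NC (adjusted p = 0.021). Their relatives *PTP4A2* and *PTP4A1*, the most abundant genes not called, differed from control by at most 0.17. The medians were -0.00, -0.05 and 0.03 with gag-pol, gag and NC.

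In ADP-ribose metabolism, which makes and clears the ligand of *TRPM2*, 13 genes were tested. With gag-pol 15.4% of them passed and with NC 7.69%, against 11.3% and 11.2% of all genes. *SARM1*, an NAD-cleaving enzyme of axon degeneration, rose by 0.44 with gag-pol (adjusted p = 0.0089 in edgeR's test) and by 0.39 with NC (adjusted p = 0.021). *BST1*, an ADP-ribosyl cyclase at the cell surface, had a log2 difference of -1.70 with gag-pol (SE 0.52, adjusted p = 0.037) at 8 to 40 counts. *PARP1* (0.22, -0.04 and 0.26 with gag-pol, gag and NC) and *PARP2* (-0.02, 0.12 and 0.04), the polymerases of the pathway, were not called. The medians were -0.02, -0.04 and 0.04.

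Of 19 genes of calcium entry and clearance, 1 passed: *CALM2*, a calmodulin gene, rose by 0.25 with NC (adjusted p = 0.047 in edgeR's test). That is 5.26% of the list with NC, against 11.2% of all genes. With gag-pol 0 passed in edgeR's test and 0 in DESeq2, with 3 at an unadjusted p under 0.05. The calcium pump *ATP2A2* (0.01, -0.05 and 0.02 with gag-pol, gag and NC) and the release channel *ITPR3* (0.13, -0.12 and 0.16), the most abundant genes of the list, were not called. The medians were 0.08, -0.01 and 0.11.

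Of 9 partners and kinase substrates, 2 passed with gag-pol and the same 2 with NC, all higher. That is 22.2% of the list each time, against 5.48% of all genes higher with gag-pol and 6.04% with NC. The share rests on 2 genes. *EEF2K*, the calcium-dependent kinase of elongation factor 2, rose by 0.39 with gag-pol (adjusted p = 0.0057 in edgeR's test) and by 0.44 with NC (adjusted p = 0.0036). *PLCG2*, a phospholipase C, rose by 0.37 (adjusted p = 0.025) and by 0.33 (adjusted p = 0.043). The myosin heavy chains *MYH9* (-0.21, -0.21 and -0.24 with gag-pol, gag and NC) and *MYH10* (0.02, -0.12 and 0.05), whose proteins the *TRPM7* kinase phosphorylates, were not called. The medians were 0.18, -0.03 and 0.19.

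**Figure D4:**
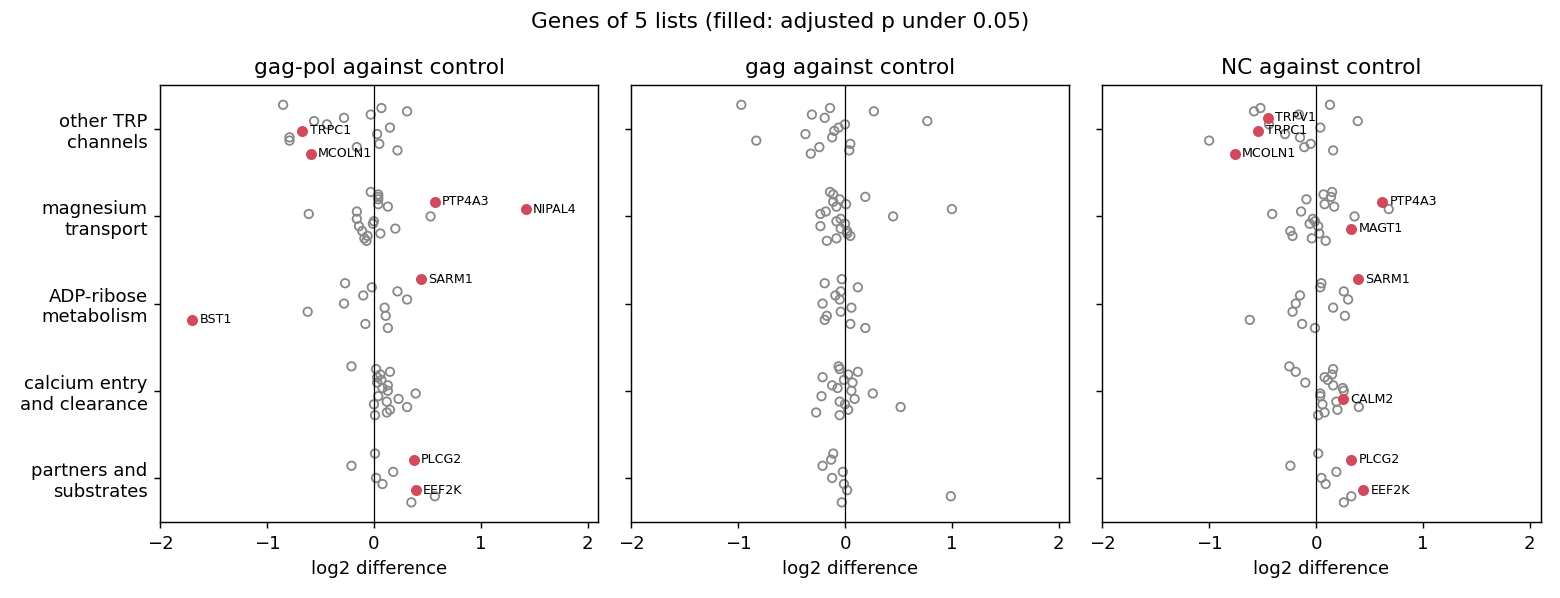
Fitted log2 differences from control (x axes) of the 78 tested genes of the 5 lists (y axis, 1 band for each list) with gag-pol, gag and NC. Filled red points with names passed an adjusted p of 0.05 in edgeR's test, and open points did not. Named TRP channels lie left of 0, most other named genes lie right of 0, and the gag panel has no filled point.

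The genes whose pattern over the 12 libraries was most like that of *TRPM4* were found by Pearson's r of log2 CPM with the replicate means removed. Over 17175 other tested genes, r was highest for *SLC22A17* (0.957), *FOXRED2* (0.947), *LOC343052* (0.943), *ARMC9* (0.941) and *SIGIRR* (0.929). *SLC22A17*, which encodes a receptor for lipocalin 2, had log2 differences from control of -0.47, -0.64 and -0.38 with gag-pol, gag and NC. *FOXRED2*, of the endoplasmic reticulum, had -0.20, -0.34 and -0.16, and *SIGIRR*, an inhibitory receptor of the interleukin 1 family, had -0.18, -0.30 and -0.12. *ARMC9*, a ciliary protein, had -0.21, -0.25 and -0.07, and *LOC343052*, with 1 to 24 counts, had -2.34, -2.45 and -1.48. The points are the same libraries for every gene, the genes were picked for r, and r is a description.

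Within the family, r with *TRPM4* over the 12 libraries was 0.51 for *TRPM7*, -0.06 for *TRPM2*, -0.10 for *TRPM6* and -0.41 for *TRPM3*. The 3 low members rest on 4 to 47 counts.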

How the data were processed

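RNA-seq of 12 HEK293 libraries was analysed. The authors made poly(A) libraries, mapped read pairs to GRCh38.p13 with STAR 2.7.3 (with SAMtools 1.8) and deposited featureCounts read counts per gene, without normalization. The annotation release, strand setting and treatment of multiply mapped reads are not given in the sources used here. All 12 columns were used.

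Counts were fitted with edgeR 4.0.16 in R 4.3.3: TMM normalization, filterByExpr by construct (minimum count 10, minimum total 15), and the robust quasi-likelihood test with construct and replicate number as terms. Benjamini-Hochberg adjustment was over 17176 genes, with a threshold of 0.05. Replicate number was taken as the passage, since the series describes passages and the study modelled harvest date. Deviations from construct means correlated at 0.14 to 0.54 in the 18 pairs of libraries with the same number, and at -0.50 to 0.07 in 36 pairs differing in number and construct. P-values for constructs measure how much the construct differences varied between passages of 1 line, after the mean level of each passage was taken out. The spread of levels between passages is thus not part of them. DESeq2 1.42.0 was an alternative. The tests were tested on simulated counts. Gene models and the TRP box bases came from GENCODE 44 and GRCh38.

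The members and lists were chosen with earlier results of these data known. The text names the members, the other TRPM genes, the 5 genes most correlated with *TRPM4* and, from each list and comparison with control, the 3 called genes with the largest differences and the 2 most abundant genes not called. *ADPRS* was matched under its older symbol.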

Additional observations from a re-analysis of the deposited data

How the results depend on the processing

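Fits were repeated with other size factors, filters and tools, with libraries thinned to 1 depth, and without single libraries or replicate numbers. Without the replicate term, 0 members other than *TRPM4* passed with gag-pol, 0 members passed for gag-pol or NC against gag, and 0 list genes passed with gag-pol or NC. Over all tested genes, 2 passed against control with gag-pol and 2 with NC, 0 for gag-pol against gag and 1 for NC against gag. Fitting only the 6 libraries compared left 0 members with gag-pol against control, thinning left 0 for gag-pol against gag, and no filter gave 2 list genes with gag. The calls between constructs were all of *TRPM4*, whose values follow from those it was chosen for, and nothing is read from them. For the other 4 members the block changed no call but that of *TRPM7* with gag-pol, and comparisons between replicate numbers need it. With canonical lengths the *TRPM7* to *TRPM4* ratio moved to 0.910, 1.32 and 1.17 in control, gag-pol and NC.

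Leaving out libraries gave 0 to 1 members other than *TRPM4* with gag-pol against control, 0 to 1 members for gag-pol against gag and 1 to 2 for replicate 3 against replicate 2. List genes called ran from 1 to 9 for gag-pol, 0 to 1 for gag and 2 to 11 for NC. They fell most without gag-pol replicate 3 (1), and by more than 1.5 times also without gag-pol replicate 1 (4) and control replicates 2 (5) and 3 (2). For NC they did so without control replicates 2 (4) and 3 (2) and NC replicates 1 (5) and 3 (3), and for gag 1 gene was called without gag replicate 2 or 3. The *TRPM4* difference ran from -0.60 to -0.48 with NC, from -0.86 to -0.71 with gag-pol and from -1.29 to -1.11 with gag.

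*TRPM2*, *TRPM3* and *TRPM6* had few counts, and their libraries also differed by more than counting noise. The spread beyond counting noise was estimated at 35.9%, 34.7% and 33.9%. Counting noise at their mean counts was 18.3%, 26.6% and 20.9%. The uncalled differences of these genes changed sign. Without the block, *TRPM2* with gag-pol was at -0.04 and *TRPM6* with NC at 0.03, and after thinning *TRPM3* was at 0.04 for NC against gag. Without single libraries or replicate numbers, *TRPM2* against control ran from -0.56 to 0.59 for gag-pol, -0.40 to 0.89 for gag and -0.20 to 0.80 for NC. In the same fits *TRPM6* ran from -0.15 to 0.65, -0.33 to 0.63 and -0.30 to 0.32, and *TRPM3* from -0.59 to 0.63 with gag-pol. For gag-pol against gag, *TRPM2* ran from -0.58 to 0.20 and *TRPM6* from -0.19 to 0.76. For NC against gag, *TRPM2* ran from -0.35 to 0.41, *TRPM3* from -0.35 to 0.23 and *TRPM6* from -0.47 to 0.31. For NC against gag-pol, *TRPM2* ran from -0.34 to 0.58 and *TRPM6* from -0.69 to 0.02. Between replicates, *TRPM2* ran from -0.38 to 0.28 (2 against 1), *TRPM4* from -0.01 to 0.08 (3 against 1) and *TRPM6* from -0.35 to 0.28 (3 against 2). *TRPM3* was not tested where 10 counts were required in every library.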

Other observations

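Between NC and gag, 16 of the 78 tested list genes passed, 14 higher and 2 lower with NC, which is 20.5% against 16.9% of all tested genes by edgeR's quasi-likelihood test (Benjamini-Hochberg). The higher genes included *PTP4A3* (log2 difference 0.74, adjusted p = 0.0041), *PLCG2* (0.47, adjusted p = 0.0052), *MACROD1* (0.43, adjusted p = 0.0077), which removes ADP-ribose from proteins, *EEF2K* (0.43, adjusted p = 0.0028), the release channel genes *ITPR2* (0.32, adjusted p = 0.024) and *ITPR3* (0.28, adjusted p = 0.015), and *PARP1* (0.30, adjusted p = 0.03). *TRPC1* and *MCOLN1* were the 2 lower genes, at a log2 difference of -0.44 each, whereas *TRPM4* was higher with NC than with gag by 0.64. Between gag-pol and gag, 5 list genes passed against 6.46% of all genes (6.41% of the list), and *TRPC1* was the lower one. Between NC and gag-pol 0 passed in edgeR's test and 0 in DESeq2, with 4 at an unadjusted p under 0.05. Without the replicate term, 0 list genes passed for NC against gag or gag-pol against gag, with 7 and 5 at an unadjusted p under 0.05. Over all tested genes, 1 and 0 passed in those fits. These genes were named after their values were seen.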
